A study of Homo sapiens with 10 samples.

Results

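The response of SK-N-FI, a human neuroblastoma cell line, to the conjugate BG-P1600-TAT was examined on 4 of the 10 arrays of the series: 2 of cells that received 30 µM of the conjugate for 48 h and 2 of control cells that received phosphate-buffered saline over the same time. Probe sets assigned to transcript clusters were taken from the deposited table, and 20893 of its 24351 probe sets were of this kind. Background on an array was set by the 612 negative controls printed on it, and a probe set brighter than their 95th percentile was taken to be above background. On all 4 SK-N-FI arrays this held for 8039 probe sets (38.5%), 7199 of them with a gene symbol, and the account below is mainly about these. Both arms grew in IMDM medium with fetal bovine serum. SK-N-FI is an established line from 1 tumour, so every array carries the same genetic background. The design text of the series speaks of biological replicates, and of more of them than the 2 arrays per arm used here. The other 6 arrays are of SK-N-AS, another neuroblastoma line, with 3 control and 3 treated arrays titled with the name BG-P-TAT, also at 30 µM. It was taken here to be BG-P1600-TAT, the name in the treatment protocol, and the comparison with SK-N-AS rests on that reading.

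Neuroblastoma arises from the sympathetic neural crest. Its noradrenergic cells keep a circuit of transcription factors of sympathetic neurons, together with enzymes, storage vesicles and transporters for noradrenaline. The norepinephrine transporter, encoded by SLC6A2, takes noradrenaline back into the cell and is the route by which radioiodinated benzylguanidine reaches these tumours. The integrin αvβ3 is a receptor for matrix proteins, made of the products of ITGAV and ITGB3, and carries a surface site for thyroid hormone. The series title names both proteins as the targets of the conjugate, and the comparison asks which transcripts differ after exposure to it.

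The SK-N-FI arrays carried the markers of a noradrenergic line. Of 14 measured noradrenergic markers, 12 were above background on all 4 arrays, among them PHOX2A and HAND2, transcription factors of the sympathetic lineage, DBH, which converts dopamine to noradrenaline, and STMN2, a growth cone protein. TH, the first enzyme of catecholamine synthesis, and SLC18A2, a vesicular monoamine transporter, were below it on every array. Of 8 mesenchymal markers, 3 were above background (VIM, CD44 and SNAI2). None of 6 Schwann cell, 10 endothelial and 9 leukocyte markers exceeded background on any array, and of 9 fibroblast markers only COL1A2 and THY1 did so on all 4. The summed level of the noradrenergic markers (log2 of the summed linear signal) was 17.31 and 17.58 in the controls and 17.71 and 17.23 in the treated arrays, so that the treated arrays lay on either side of the controls. For the mesenchymal markers it ranged from 14.64 to 14.75 over the 4 arrays, and for the fibroblast markers from 12.86 to 13.27.

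The medians of the 4 arrays over all 20893 probe sets were 6.66 to 6.67 on the log2 scale. The upper end of their negative controls differed more. The background threshold was 7.61 and 7.44 in control arrays 1 and 2, 8.26 in treated array 1 and 7.59 in treated array 2. Treated array 1 therefore had the fewest probe sets above background, 8088, against 9004 to 9337 on the other 3, and it mostly set which probe sets passed. Just inside the limit lay TMEM132A and CLIP4, each 0.001 above the array's own threshold on the array where it came closest. Just outside lay CCL27, 0.001 under the threshold on the array where it fell furthest short, and MATCAP1, 0.002 under it.

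No transcript passed the test for a difference between treated and control SK-N-FI cells. Limma with Benjamini-Hochberg adjustment called 0 of 20893 probe sets (0.0%), and 0 of the 8039 above background (0.0%), where the smallest adjusted p was 1 in both. At an unadjusted p under 0.05 there were 596 and 70 probe sets. The equal-variance test without moderation also called 0 of each, with 780 and 273 at an unadjusted p under 0.05. Where no transcript differs, a share of 0.05 is expected under that limit, and each of these counts was below it. Every direction given below is that of the array values and not of a called change, and of 92 named genes, 63 had a change that moved by over 1.5 times when 1 of the 4 arrays was left out. With 2 arrays in each arm the number of arrays limits the precision of each value, and in bulk RNA fewer cells of a type cannot be told apart from less RNA per cell.

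What the data bound is the size of a change. Among the 8039 probe sets the log2 change, treated minus control, ran from -0.82 to 0.82, and 133 exceeded 0.5 in size. None of these probe sets reached a change of 1, a doubling or halving of the signal. A transcript at background in 1 arm is left out by the filter, so a change between background and signal is not bounded here. The 95% interval of the change lay within a 2-fold difference in either direction for 7639 probe sets (95.0%) and within a 4-fold difference for all 8039. Within a 1.5-fold difference it lay for only 2019 (25.1%), so this fit did not resolve differences of that order for most transcripts. The typical half-width of an interval was 0.53. Because limma shares variance across probe sets, this width varied little. Its median was 0.55 under a mean log2 signal of 9 and 0.51 over 14. The median residual standard deviation fell from 0.22 to 0.13 between these bins. With an intensity trend, limma called 0 of the 8039, with 138 at an unadjusted p under 0.05 against 70 without it. Intervals from that fit are not given here.

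Arrays of one arm differed from each other by more than the arms did. The median absolute difference was 0.191 between the 2 control arrays and 0.209 between the 2 treated arrays, against 0.114 between the arm means. A difference of means over pairs is smaller than a difference of single arrays by construction, so these values describe the scale of the spread and do not test it. More than 1 on the log2 scale separated the control arrays for 56 probe sets and the treated arrays for 53. The spread was widest in dim probe sets. Under a mean log2 signal of 9 the control arrays differed by a median of 0.222 and the treated arrays by 0.269, and over 14 these values were 0.150 and 0.167. Among dim probe sets the background limit favours those that read high on treated array 1, whose threshold was the highest. The median of treated array 2 minus treated array 1 was -0.144 under 9, and between -0.090 and -0.028 in the brighter bins. How much of the treated spread came from the limit was not tested.

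**Figure D1:**
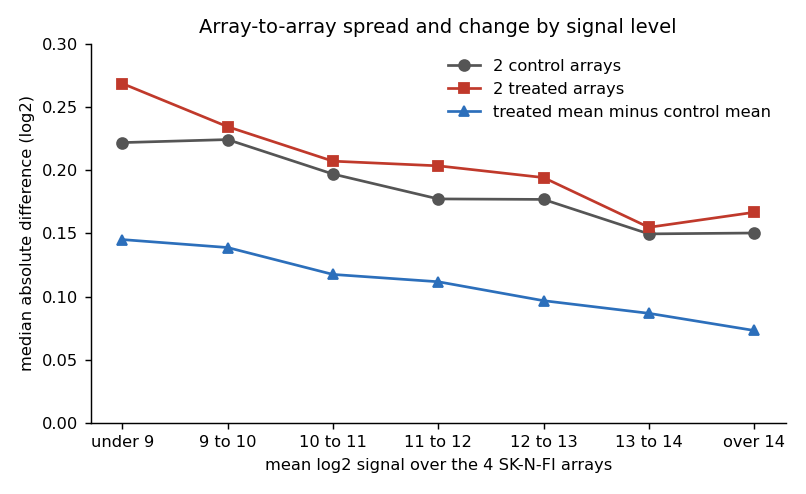
Median absolute log2 difference between the 2 control arrays (circles), between the 2 treated arrays (squares) and between the arm means (triangles), for SK-N-FI probe sets above background grouped by mean log2 signal. The differences within an arm lie between 0.150 and 0.269 and the difference of the means between 0.073 and 0.145, and all 3 are smaller in bright probe sets.

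The way the arrays resembled each other did not follow the arms. Over the 8039 probe sets, control array 2 and treated array 1 had the highest correlation of all 6 pairs (Pearson r = 0.992 across probe sets, which are not independent), against 0.987 for the 2 controls and 0.985 for the 2 treated arrays. In a principal component analysis the first component held 44.8% of the variance and gave scores of -10.06 and 8.09 to control arrays 1 and 2 and of 14.14 and -12.17 to treated arrays 1 and 2. Only 0.752% of that component lay between the arms. The second component (36.0% of the variance) was lowest in control array 1, at -15.06, and highest in treated array 2, at 12.96. The third (19.2%) was the one in which the arms differed most, with 69.0% of it between them, from scores of 0.97 and 11.37 in the controls and of -8.83 and -3.50 in the treated arrays.

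Single genes showed this spread within an arm. IGF2, a growth factor of fetal tissues, read 9.94 and 12.06 in the controls and 11.44 and 11.34 in the treated arrays (log2 signal). ID1, an inhibitor of basic helix-loop-helix factors, read 11.44 and 9.86 in the controls and 10.79 and 10.05 in the treated arrays. HAND1, a basic helix-loop-helix factor of the sympathetic lineage, read 13.79 and 12.22 against 12.88 and 11.98. In each of these the control arrays were further apart than the arm means. TCEAL8 (8.87 and 10.47 in the controls) and TRAPPC5 (8.62 and 10.12), a subunit of a vesicle tethering complex, were the other genes with the widest control pairs. Among the treated arrays the widest pair was that of ADAR, which deaminates adenosine in double-stranded RNA, at 9.65 and 7.91. CDKN1A, the p21 inhibitor of cyclin-dependent kinases, read 10.92 and 11.20 in the controls and 11.63 and 10.34 in the treated arrays, so that 1 treated array lay above both controls and the other below both. ZNF268, MICOS13, a subunit of the complex at mitochondrial cristae junctions, and METTL17, a factor of the mitochondrial ribosome, had the same order of arrays, with treated array 1 highest and treated array 2 lowest.

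Transcripts in which the arrays of the arms did not overlap were then listed. Of the 8039 probe sets, 1009 (12.6%) had both treated arrays above both controls and 1011 (12.6%) had both below. Over all 20893 probe sets, dim ones included, the arms did not overlap in 5799 (27.8%), 2885 (13.8%) of them higher and 2914 (13.9%) lower. These shares are the background against which the members of each gene group below are read.

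Higher in both treated arrays, with the largest change, was BHMT2, a methyltransferase that remethylates homocysteine. It read 8.86 and 8.17 in the controls and 9.07 and 9.59 in the treated arrays, a log2 change of 0.82 (95% interval 0.10 to 1.54). WDR53, a WD-repeat protein, read 8.94 and 8.64 in the controls and 9.42 and 9.76 in the treated arrays, a change of 0.80 (0.24 to 1.35). In both genes the treated arrays lay above the controls, and in BHMT2 the lower treated array was 0.211 above the higher control. ATP10D, a phospholipid flippase, went from 8.36 and 8.99 to 9.27 and 9.51 (0.72). CYTL1, a small secreted cytokine-like protein, went from 8.02 and 8.54 to 8.80 and 9.15 (0.69). These 4 genes lay near the lower end of the measured range, where the spread between arrays was widest.

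Brighter genes were fewer among the largest changes. TMEM176A, a membrane protein, read 12.72 and 12.95 in the controls and 13.59 and 13.49 in the treated arrays, a change of 0.71 (0.20 to 1.21). OSTM1, the partner of the lysosomal chloride transporter encoded by CLCN7, read 11.12 and 11.46 in the controls and 11.88 and 12.09 in the treated arrays, a change of 0.69 (0.15 to 1.23). With any 1 of the 4 arrays left out, the change of TMEM176A ran from 0.59 to 0.82 and that of OSTM1 from 0.52 to 0.86, while that of BHMT2 ran from 0.47 to 1.17. None passed (adjusted p of 1 by limma, with n = 2 in each arm).

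The remaining 4 of the 10 largest higher values came from 1 gene family, CT45A, cancer/testis antigens encoded by near-identical copies on the X chromosome. CT45A8 and CT45A9 had identical values on every array, 10.04 and 10.18 in the controls and 10.75 and 10.94 in the treated arrays (change 0.73, 0.23 to 1.24). CT45A2 read 9.29 and 9.25 in the controls and 10.00 and 9.94 in the treated arrays, and both pairs were tight (0.70, 0.22 to 1.19). CT45A5 read 9.12 and 9.52 against 9.95 and 10.09 (0.70). The other copies were looked up after these values were seen. All 9 probe sets of the family were above background on all 4 arrays, and 8 of the 9 had both treated arrays above both controls. CT45A3 had a change of 0.69, CT45A10 of 0.68, CT45A7 of 0.66 and CT45A6 of 0.51. The exception was CT45A1, at 9.18 and 9.22 in the controls and 9.27 and 9.06 in the treated arrays (-0.03). The copies are close enough in sequence for probes to be shared, so the 9 probe sets do not measure 9 separate transcripts and which copy carries the signal is uncertain. Limma gave an adjusted p of 1 for each of the 9, and all 9 were below background on all 6 SK-N-AS arrays.

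**Figure D2:**
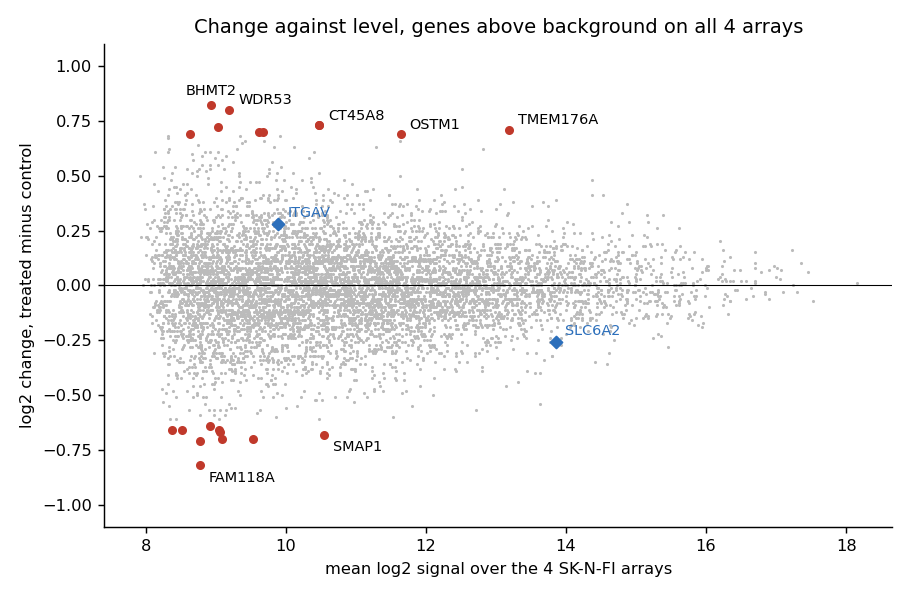
Log2 change, treated minus control, against the mean log2 signal of the 4 SK-N-FI arrays for genes above background on all 4 (grey), with the 10 largest higher and 10 largest lower values in red and SLC6A2 and ITGAV as blue diamonds. All changes lie between -0.82 and 0.82, and most of the red points lie at the dim end, with TMEM176A, OSTM1 and SMAP1 among the exceptions.

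Lower in both treated arrays, with the largest change, was FAM118A. It read 9.20 and 9.16 in the controls and 8.57 and 8.16 in the treated arrays, a log2 change of -0.82 (95% interval -1.36 to -0.27). SMAP1, a GTPase-activating protein for ARF6 in endocytosis, read 10.96 and 10.80 in the controls and 10.16 and 10.24 in the treated arrays, a change of -0.68 (-1.18 to -0.19). Both genes had tight control pairs and treated arrays clear of them. CHST15, a sulfotransferase of chondroitin sulfate, read 10.10 and 9.65 in the controls and 9.10 and 9.24 in the treated arrays, a change of -0.70 (-1.27 to -0.14). ALDOC, the neuronal aldolase of glycolysis, read 9.39 and 9.07 against 8.43 and 8.75 (-0.64).

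In other genes at this end 1 array carried much of the difference. SLC37A4, the glucose 6-phosphate transporter of the endoplasmic reticulum, read 9.22 and 9.04 in the controls and 8.72 and 8.11 in the treated arrays (-0.71). GALM, galactose mutarotase, read 8.79 and 8.90 against 8.67 and 7.71 (-0.66), and without treated array 2 its change was -0.18. ZNF124, a zinc finger gene, read 8.78 and 8.64 against 8.40 and 7.69 (-0.66). In these 3 the low value was that of treated array 2. The high value was that of a control array in CXCL12, the chemokine ligand of CXCR4, which read 9.73 and 9.03 in the controls and 8.83 and 8.60 in the treated arrays (-0.66). The same held for HYCC1, which belongs to a complex that recruits a phosphatidylinositol kinase to the plasma membrane (9.78 and 9.08 against 8.92 and 8.54, -0.70), and for the zinc finger gene ZSCAN2 (9.01 and 9.77 against 8.70 and 8.74, -0.67). Limma gave an adjusted p of 1 for each of these 10 genes.

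**Figure D3:**
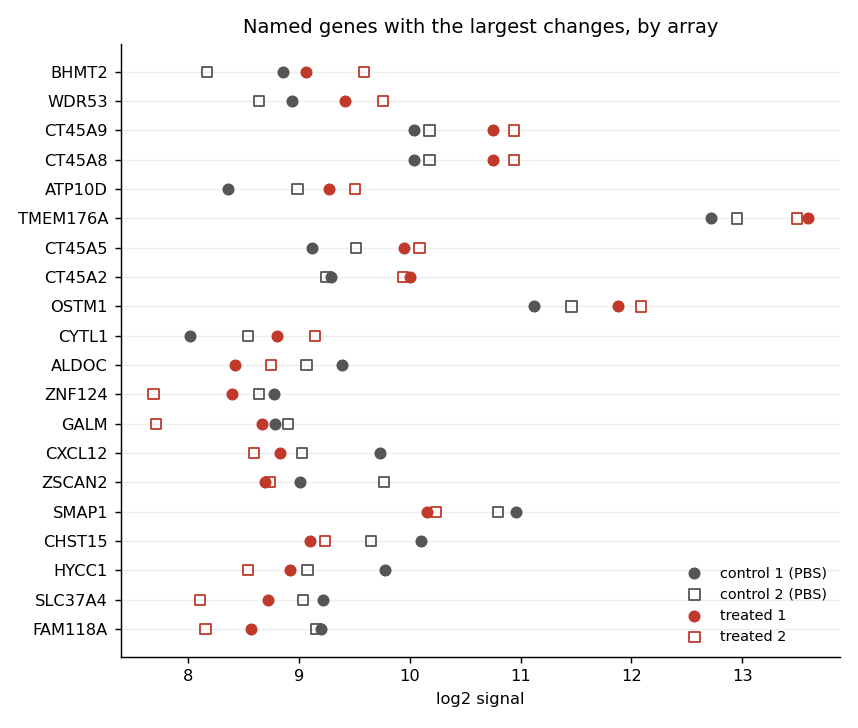
Log2 signal on each of the 4 SK-N-FI arrays (control arrays grey, treated arrays red; replicate 1 filled circles, replicate 2 open squares) for the genes with the 10 largest higher and 10 largest lower values. The arms do not overlap in any of them, as the choice of these genes requires; the pairs are tight in SMAP1, TMEM176A and CT45A2, while in GALM treated array 2, at 7.71, lies apart from the other 3.

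The genes of the targets named for the conjugate differed in whether they were above background. SLC6A2, on chromosome 16, read 14.41 and 13.55 in the controls and 13.57 and 13.87 in the treated arrays, a log2 change of -0.26 (95% interval -0.998 to 0.47). Its highest and lowest value were both in the controls, and without control array 1 the change was 0.17. ITGAV, on chromosome 2, read 9.82 and 9.68 in the controls and 9.85 and 10.21 in the treated arrays, a change of 0.28 (-0.26 to 0.82), and the nearest arrays of the arms were 0.028 apart. ITGB3 read 6.52 and 6.50 in the controls and 6.15 and 6.72 in the treated arrays. It was under the background threshold on every array, so its signal was not told apart from background. The transcript of 1 partner of the αvβ3 receptor was therefore above background and that of the other was not.

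Integrin subunits pair as 1 alpha and 1 beta chain. Of 17 measured alpha subunits 3 were above background, and each of the 3 had both treated arrays above both controls. Besides ITGAV these were ITGA6, a laminin receptor subunit, at 14.39 and 14.61 in the controls and 14.79 in each treated array (0.29, -0.21 to 0.80), and ITGAE, the subunit of an E-cadherin receptor, at 9.39 and 9.22 against 9.42 and 9.82 (0.32, -0.23 to 0.86). Of 8 beta subunits 2 were above background. ITGB1, the most widely shared beta chain, read 14.88 and 14.51 in the controls and 14.80 in each treated array, and ITGB8, which pairs with alpha V, read 8.77 and 9.60 against 9.26 and 9.75, so that neither was separated. Limma gave an adjusted p of 1 for every integrin gene named. Of 14 focal adhesion genes above background, 0 were higher and 2 lower in both treated arrays (median change 0.02), the lower ones being the adaptor CRKL (-0.26) and the kinase SRC (-0.17).

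Gene groups were next described by role, each by its members above background, beside a median change of -0.004 and shares of 12.6% higher and 12.6% lower over all 8039 probe sets. In all, 521 distinct genes of 40 lists were above background, and limma called 0 of them. Both treated arrays lay above both controls in 49 and below both in 70.

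The transcription factors of the noradrenergic circuit showed mostly overlapping arrays. Of 15 above background, 0 were higher and 1 was lower in both treated arrays, with a median change of -0.04. The lower one was TBX20, a T-box factor, at 10.93 and 10.63 in the controls and 10.38 and 9.96 in the treated arrays (-0.61, 95% interval -1.19 to -0.04). PHOX2A, a homeobox factor of sympathetic neurons, read 12.87 and 12.20 in the controls and 13.06 and 11.93 in the treated arrays. GATA3, a zinc finger factor of the same circuit, read 10.24 and 10.21 against 10.51 and 9.72. In both of these treated array 1 was the highest and treated array 2 the lowest. ISL1, a LIM homeobox factor, varied little, at 13.60 and 13.85 in the controls and 13.88 and 13.73 in the treated arrays.

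Of 10 catecholamine handling genes above background, 0 were higher and 1 was lower in both treated arrays. Their median change was -0.18, and it ran from -0.35 to 0.05 when single arrays were left out. The lower one was DBH, at 14.24 and 14.05 in the controls and 14.04 and 13.87 in the treated arrays, a separation of 0.012. DDC, which makes dopamine from DOPA, read 12.99 and 12.62 in the controls and 12.82 and 12.36 in the treated arrays. MAOA, which breaks down noradrenaline, read 12.04 and 13.06 against 13.09 and 12.80, with control array 1 apart from the other 3.

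Granins and neuropeptides fill the dense-core vesicles of such cells. Of 10 above background, 1 was higher and 0 were lower in both treated arrays, with a median change of 0.15. The higher one was CHGA, chromogranin A, at 10.62 and 10.54 in the controls and 10.80 and 10.67 in the treated arrays (0.15). PAM, the enzyme that amidates neuropeptides, read 8.36 and 9.33 in the controls and 9.58 and 9.28 in the treated arrays, and the peptide precursor VIP read 14.28 and 15.02 against 14.93 and 14.78. In both of these control array 1 was the low array and the other 3 lay together. The mean of the 10 genes was likewise 11.88 in control array 1 and 12.19 to 12.32 in the other 3.

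Of 13 synaptic vesicle and exocytosis genes above background, 1 was higher and 6 were lower in both treated arrays, with a median change of -0.04. SYP, synaptophysin of the vesicle membrane, read 8.47 and 8.79 in the controls and 8.32 and 7.97 in the treated arrays (-0.48, 95% interval -1.05 to 0.08). SYNGR1, a related vesicle protein, read 11.25 and 11.67 in the controls and 11.23 and 11.11 in the treated arrays (-0.29). SNAP25, a SNARE of vesicle fusion, read 10.46 and 10.39 against 10.29 and 10.19, and SYT1, its calcium sensor, 14.84 and 14.81 against 14.80 and 14.75. The separations were small, and in SYNGR1 and SYT1 the nearest arrays of the arms differed by 0.021 and 0.011.

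Of 22 neuronal cytoskeleton and growth cone genes above background, 4 were higher and 2 lower in both treated arrays (median change 0.05). MARCKS, an actin-binding substrate of protein kinase C, read 10.79 and 11.26 in the controls and 11.64 and 11.29 in the treated arrays (0.44, 95% interval -0.16 to 1.04). MAP2, a dendritic microtubule protein, read 11.72 and 12.03 in the controls and 12.19 and 12.25 in the treated arrays (0.34). The lower ones were PRPH, the intermediate filament peripherin, at 11.58 and 11.53 against 11.48 and 11.03 (-0.30), and DPYSL2, a growth cone protein, at 14.09 and 14.01 against 13.93 and 13.69 (-0.24). GAP43 read 13.60 and 14.58 in the controls and 14.32 and 14.11 in the treated arrays, so its widest difference was within the controls.

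Receptors and ligands that drive neuroblastoma growth, with the genes of the GD2 antigen, had 0 of 12 higher and 3 lower in both treated arrays (median change -0.15). The mean was lower in treated cells for 10 of the 12. The share over all probe sets is given with the endoplasmic reticulum genes below. By array, the 12 genes averaged 11.99 and 11.94 in the controls and 11.95 and 11.72 in the treated arrays. Treated array 1 thus lay between the controls, and only treated array 2 lay below both. L1CAM, an adhesion molecule of axons, read 11.98 and 11.81 in the controls and 11.70 and 11.24 in the treated arrays (-0.43, 95% interval -0.99 to 0.14). RET, a receptor tyrosine kinase, read 12.81 and 12.49 against 12.49 and 12.44, a separation of 0.001. ALK, the receptor most often mutated in familial neuroblastoma, read 8.44 and 8.67 against 8.48 and 8.42. BDNF, a neurotrophin, read 8.14 and 9.36 in the controls and 9.29 and 9.30 in the treated arrays, with control array 1 alone below the other 3. Of 9 mesenchymal neuroblastoma genes above background, 1 was higher, ANXA1, the phospholipid-binding annexin A1 (0.32), and 1 was lower.

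Of 29 hypoxia response and glycolysis genes above background, 3 were higher and 8 lower in both treated arrays, with a median change of -0.05. Besides ALDOC, the lower ones included SLC2A1, the glucose transporter GLUT1, at 10.92 and 11.01 in the controls and 10.87 and 10.27 in the treated arrays (-0.40), and VEGFA, the angiogenic growth factor, at 13.04 and 12.67 against 12.49 and 12.60 (-0.31). HK1, the first kinase of glycolysis, was higher, at 8.17 and 8.48 in the controls and 9.13 and 8.58 in the treated arrays (0.53). Both depended on 1 array: the change of SLC2A1 was -0.10 without treated array 2, and that of HK1 was 0.25 without treated array 1.

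Of 34 oxidative phosphorylation subunits, 6 were higher and 2 lower in both treated arrays, with a median change of 0.05. SDHC, a membrane anchor of succinate dehydrogenase, read 11.53 and 11.70 in the controls and 11.82 and 12.09 in the treated arrays (0.33, 95% interval -0.19 to 0.86). ATP5PD, a stalk subunit of the ATP synthase, read 12.87 and 13.04 against 13.18 and 13.25 (0.26). The interval of every one of the 34 lay within a 2-fold difference. Without single arrays the list's median ran from -0.01 to 0.13.

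Of 25 lysosome and autophagy genes, 1 was higher and 5 were lower in both treated arrays (median change -0.04). ULK1, the kinase that starts autophagy, read 8.59 and 8.67 in the controls and 8.30 and 8.15 in the treated arrays (-0.41, 95% interval -0.90 to 0.09), and its pairs were tight. GLA, the lysosomal alpha-galactosidase, read 9.41 and 8.87 against 8.73 and 8.77 (-0.39). The proton pump subunits ATP6V0D1 (-0.34) and ATP6AP1 (-0.30) were also lower in both treated arrays. Of 20 genes of cholesterol synthesis and uptake, 1 was higher and 2 were lower, among the latter SQLE, squalene epoxidase, at 11.99 and 11.98 against 11.79 and 11.77 (-0.20).

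**Figure D4:**
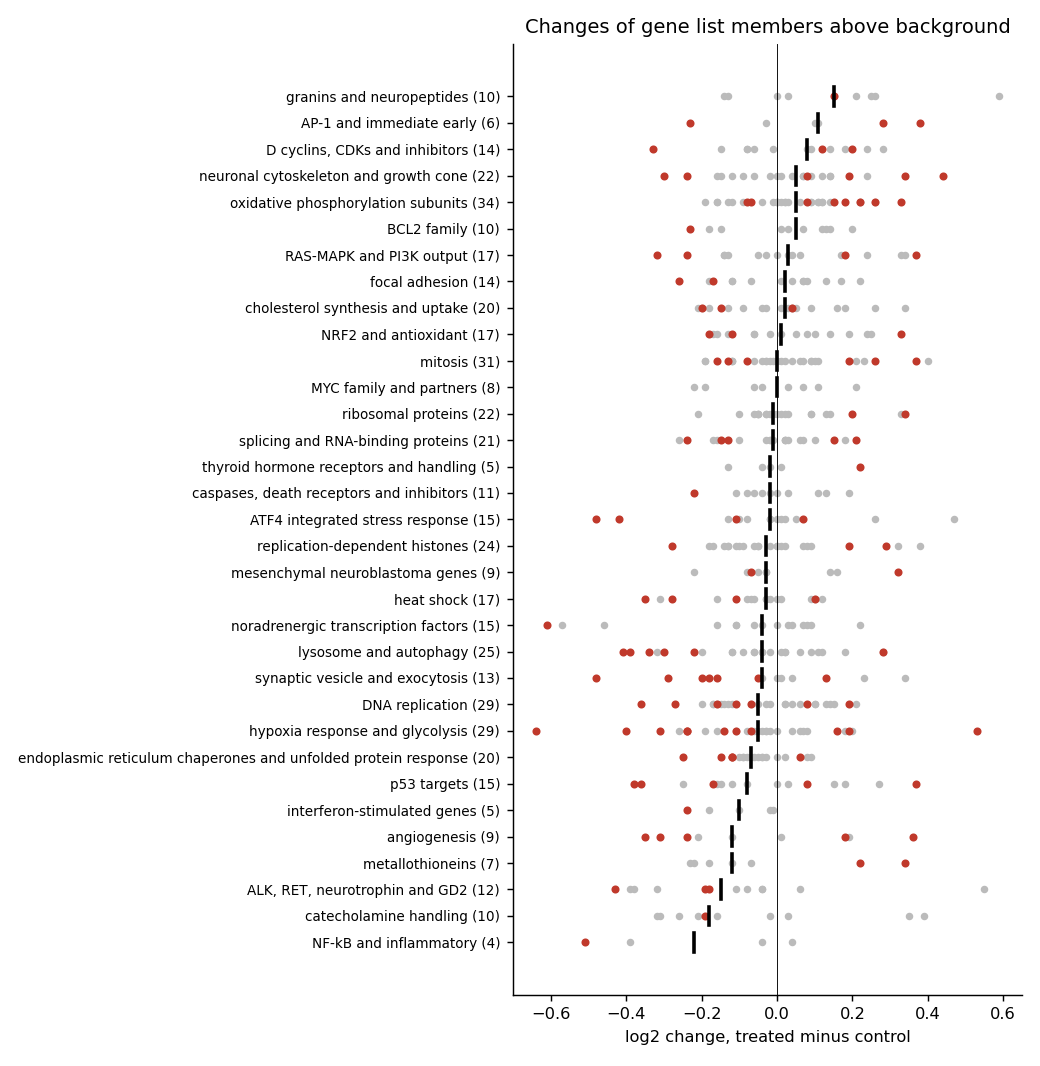
Log2 change, treated minus control, of list members above background on all 4 SK-N-FI arrays, with 1 row per list (number of members in brackets) and the list's median as a black bar; members whose arrays do not overlap between arms are red. The lists with at least 4 such members are shown, and their medians lie between -0.22 and 0.15. Several lists have more red points below 0 than above it, among them synaptic vesicle, hypoxia and glycolysis, and lysosome and autophagy genes. Others, such as oxidative phosphorylation subunits, have more above it.

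Of 20 genes of endoplasmic reticulum chaperones and the unfolded protein response, 16 had a lower mean in treated cells, and 1 was higher and 4 were lower in both treated arrays (median change -0.07). The 4 were small differences, in MANF, a secreted stress-induced factor (-0.25), the chaperones CANX (-0.15) and HYOU1 (-0.12), and SEC61B, a subunit of the translocation channel, at 11.98 and 11.86 against 11.80 in each treated array. Over all 8039 probe sets the mean was higher in treated cells for 49.0%. Of 17 heat shock genes, 1 was higher and 3 were lower (median -0.03), and the mean was lower for 11. HSPH1, a cochaperone of HSP70, read 15.54 and 15.66 in the controls and 15.35 and 15.28 in the treated arrays (-0.28), and DNAJB1, an HSP40 protein, 12.38 and 12.22 against 12.09 and 11.80 (-0.35).

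The ATF4 response to amino acid and other stress had 1 of 15 genes higher and 3 lower in both treated arrays, with a median change of -0.02. SLC7A5, an importer of large neutral amino acids, read 12.16 and 11.73 in the controls and 11.49 and 11.45 in the treated arrays (-0.48, 95% interval -1.03 to 0.08). ASNS, asparagine synthetase, read 12.23 and 12.41 in the controls and 11.79 and 12.01 in the treated arrays (-0.42, -0.93 to 0.09). The arms did not overlap in either gene, and both intervals included 0. Of 17 NRF2 and antioxidant genes, 1 was higher, the NADPH-producing malic enzyme ME1, at 10.26 and 10.30 against 10.58 and 10.65 (0.33), and 2 were lower, among them TKT, transketolase (-0.18).

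Of 31 mitosis genes, 3 were higher and 3 lower in both treated arrays (median -0.00), with CCNB1, the cyclin of mitotic entry, at 12.24 and 12.48 in the controls and 12.65 and 12.81 in the treated arrays (0.37, 95% interval -0.14 to 0.89) and PTTG1, securin, at 0.26. Of 29 DNA replication genes, 2 were higher and 5 lower (median -0.05). CDC45, a subunit of the replicative helicase, read 10.91 and 10.62 against 10.51 and 10.31 (-0.36), and GINS1, of the same complex, had a change of -0.27. RFC5, a subunit of the clamp loader, was higher (0.19). Among cyclins D, their kinases and inhibitors, 2 of 14 were higher and 1 was lower, CCND3, at 10.84 and 10.52 against 10.41 and 10.30 (-0.33). Of 24 replication-dependent histone genes, 2 were higher and 1 was lower, H1-1 (-0.28).

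For p53 targets, 2 of 15 were higher and 3 lower in both treated arrays (median -0.08). MDM2, which degrades p53, read 10.46 and 10.45 in the controls and 10.40 and 9.75 in the treated arrays (-0.38), and XPC, a sensor of DNA damage, 10.30 and 10.25 against 9.67 and 10.16 (-0.36). In each, 1 treated array was close to the controls. TRIAP1, a mitochondrial lipid transfer protein, was higher (0.37). Of 10 genes of the BCL2 family, 0 were higher and 1 was lower, the survival factor BCL2L2 (-0.23), and of 11 caspases, death receptors and inhibitors 0 were higher and 1 was lower, BIRC2 (-0.22).

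Of 17 RAS-MAPK and PI3K output genes, 2 were higher and 2 lower in both treated arrays. ETV5, an ETS factor downstream of the pathway, read 10.81 and 10.72 in the controls and 10.95 and 11.31 in the treated arrays (0.37), and SPRED1, an inhibitor of it, 10.54 and 10.31 against 10.19 and 10.02 (-0.32). Of 6 AP-1 and immediate early genes, EGR1 (0.28) and NR4A1 (0.38) were higher and IER2 (-0.23) was lower. Of 8 genes of the MYC family and its partners, 0 were separated in either direction, and MYCN, the oncogene amplified in part of neuroblastomas, read 9.85 and 10.45 in the controls and 10.26 and 10.11 in the treated arrays.

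Of 9 angiogenesis genes, 2 were higher and 3 lower in both treated arrays, with a median change of -0.12. Besides VEGFA the lower ones were NRP1, a VEGF coreceptor, at 10.94 and 10.58 in the controls and 10.56 and 10.25 in the treated arrays (-0.35), and the ligand PGF, at 10.13 and 9.99 against 9.83 and 9.81 (-0.24). VEGFB, another ligand, was higher, at 8.05 and 8.32 against 8.73 and 8.37 (0.36). The integrin αvβ3 also binds thyroid hormone, and of 5 genes of thyroid hormone receptors and handling above background 1 was higher, the nuclear receptor partner RXRB (0.22), while the receptor THRA read 9.29 and 8.91 in the controls and 8.97 in each treated array.

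The remaining groups were mostly dim or overlapping. Interferon-stimulated genes had 5 of 29 members above background, 1 of them lower in both treated arrays, MX2 (-0.24). NF-kB and inflammatory genes had 4 of 22 above background. One subunit, REL, was lower, at 8.82 and 9.04 in the controls and 8.37 and 8.48 in the treated arrays (-0.51). Metallothioneins are zinc-binding proteins whose copies are similar in sequence, and their list also held SLC30A1 (-0.23), which is not a metallothionein. Of the 7 list members above background, MT1B (0.34) and MT1M (0.22) were higher and 0 were lower in both treated arrays. The mean was lower in treated cells for 5 of the 7, and the median change was -0.12. Ribosomal proteins had 2 of 22 higher and 0 lower, among them RPL10A (0.34), and splicing and RNA-binding proteins had 2 of 21 higher and 3 lower, with SRSF6 at 0.21 and HNRNPH1 at -0.24. TUBA1B, an alpha tubulin with one of the 8 brightest signals, read 18.12, 18.16, 18.17 and 18.15 in the controls and treated arrays in turn, and GAPDH 17.34, 17.50, 17.64 and 17.32.

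The means of these lists were also compared by array. Among 33 lists with at least 4 members above background, 16 had lower means in control array 1 and treated array 2 than in the other pair, and the rest did not. Neuronal cytoskeleton genes averaged 12.56 and 12.89 in the controls and 12.89 and 12.64 in the treated arrays, ribosomal proteins 15.11 and 15.37 against 15.39 and 15.15, and replication-dependent histones 12.33 and 12.53 against 12.62 and 12.24. In these 3 groups control array 1 and treated array 2 were the low arrays. In other lists control array 1 was among the high arrays. Noradrenergic transcription factors averaged 12.13 and 12.03 in the controls and 12.14 and 11.81 in the treated arrays. Catecholamine handling genes averaged 11.72 and 11.62 against 11.73 and 11.48, and members of the metallothionein list 11.36 and 10.99 against 11.14 and 11.13.

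**Figure D5:**
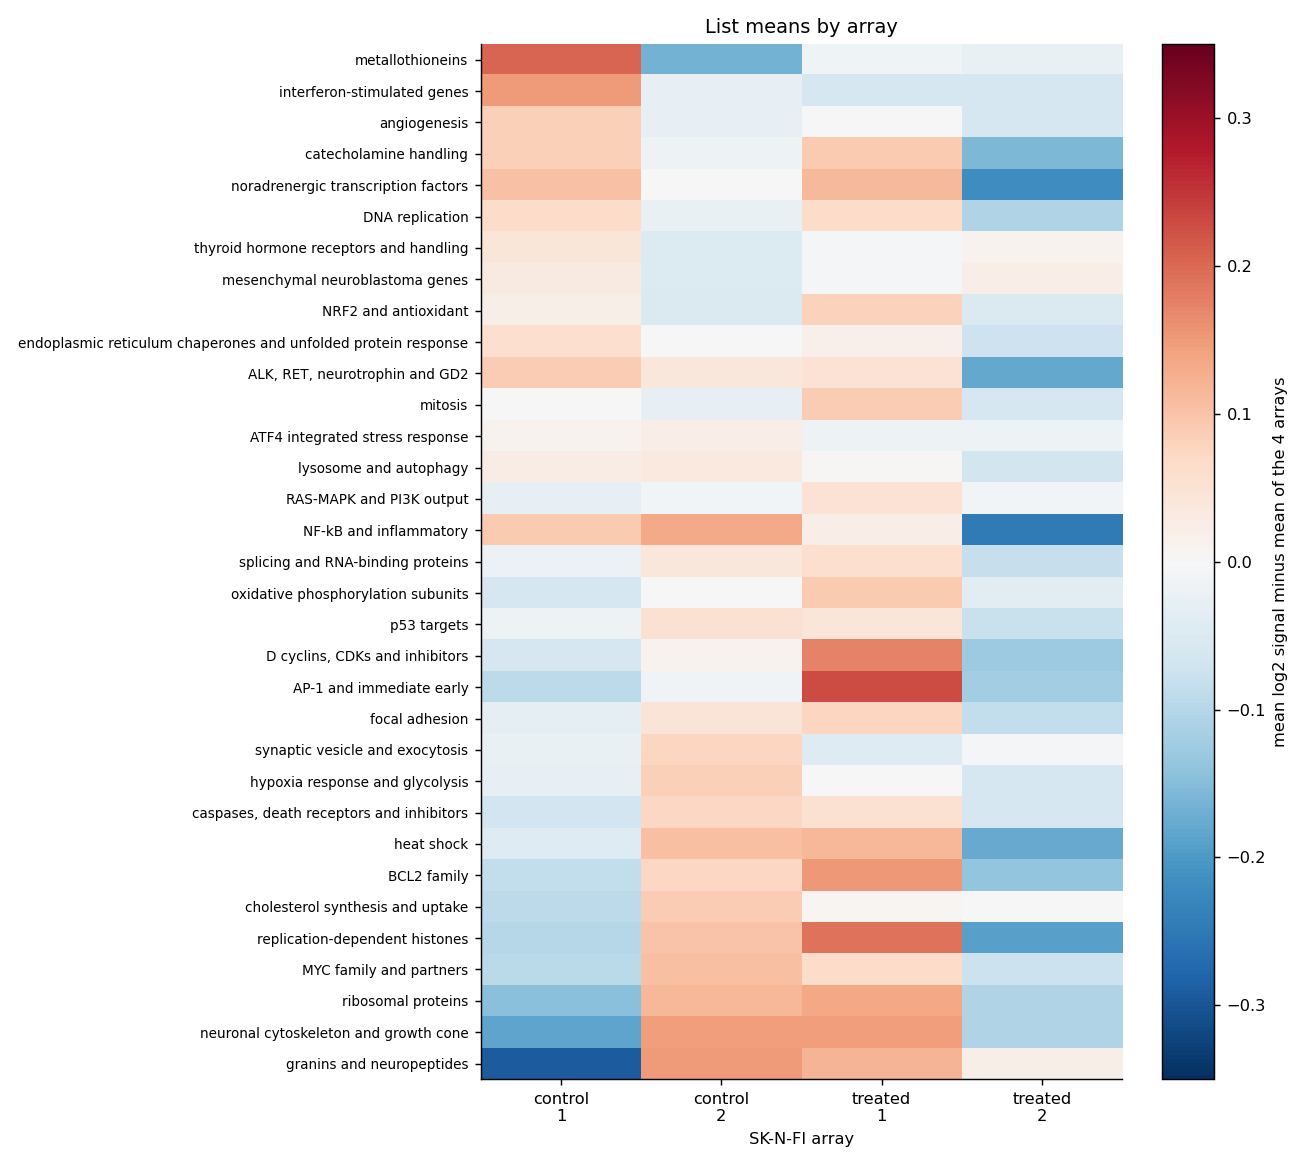
Mean log2 signal of list members above background on each SK-N-FI array, minus the mean of the 4 arrays, with red above and blue below that mean; lists with at least 4 such members are ordered by the difference between the control arrays. Granins, neuronal cytoskeleton, ribosomal proteins and histones are lowest in control array 1 or treated array 2, while the metallothionein list is highest in control array 1.

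The size of the response was last compared with that in SK-N-AS by a test of the difference of the effects. Limma called 0 of 20893 probe sets (0.0%) for a difference between the lines, with 444 at an unadjusted p under 0.05, again below a share of 0.05. Of the genes with the largest SK-N-FI changes, several were above background on all 6 SK-N-AS arrays. FAM118A had a log2 change of -0.82 in SK-N-FI and of 0.16 in SK-N-AS, a difference of -0.97 (limma interaction, unadjusted p = 0.0215, adjusted p = 1). BHMT2 had changes of 0.82 and -0.11, a difference of 0.93 (unadjusted p = 0.0459, adjusted p = 1 by limma). Both genes were chosen for their SK-N-FI change, which also enters this test, so their unadjusted p-values are biased towards small values. CXCL12 had changes of -0.66 and 0.05, TMEM176A of 0.71 and 0.01, and SMAP1 of -0.68 and -0.05. OSTM1 was higher on average in both lines, at 0.69 and 0.47, and its SK-N-AS arrays overlapped (9.04, 10.52 and 10.27 in the controls and 9.80, 10.16 and 11.26 in the treated arrays). None of these differences passed the test, which does not show that the lines responded alike.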

How the data were processed

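RNA was extracted with Trizol, labelled with biotin and hybridised to whole-transcript arrays, per the labels' protocols. The deposited table holds 1 log2 signal for each probe set and array. Transcriptome Analysis Console 4.0.1.36 and RMA appear in the submitters' processing notes, with no role given. RMA commonly includes quantile normalization, which would hide a shift shared by most transcripts; whether it was applied to these 4 arrays together is not given in the sources used here. Gene symbols came from the platform annotation (17705 probe sets, all found in RefSeq; 3188 unnamed here). Arms were compared with limma 3.58.1 in R 4.3.3 (lmFit, eBayes, 2 arrays each, no covariate), with p-values adjusted by Benjamini-Hochberg at 0.05 over 20893 probe sets and over the 8039 above background. The difference between lines came from a fit of all 10 arrays in 4 groups. For a symbol with several probe sets the brightest was used (17 symbols). The fit was also run on data simulated from its own model, which cannot test whether that model suits these arrays.

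Named genes were, among those above background, the 10 largest higher and 10 largest lower values with non-overlapping arrays, 8 of the brightest, the 5 widest pairs in each arm, up to 4 list members with the smallest p, and the 3 target genes. Other list members are given by level. The comparison and the lists were chosen with earlier results of these data known. Replicate numbers did not pair the arrays (correlation of deviations -0.145 over 8039 probe sets).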

Additional observations from a re-analysis of the deposited data

Results flagged for a closer look

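A signal lay in probe sets that no comparison above uses: of 555 probe sets that the array design leaves unmapped, 132 exceeded the negative controls on all 4 SK-N-FI arrays. They have no gene here and were not analysed further. The same rule held for a larger share of the gene probe sets, 8039 of 20893.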

How the results depend on the processing

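The call counts were 0 under all 44 alternatives, among them other eBayes settings, a looser threshold, quantile and median scaling, array weights, other background limits and single arrays left out. With a replicate block limma called 0 probe sets, with 459 of 20893 and 36 of 8039 at an unadjusted p under 0.05. A crossed block, chosen after seeing the data, also called 0, with 908 and 98. The counts of both blocks were below a share of 0.05. With 1 array left out, 1 arm holds a single array, so p-values of those fits are not given here. Not all of those fits stayed below a share of 0.05 at the unadjusted limit, and the fit without treated array 1 exceeded it over all 20893 probe sets. Of 736 alternative values for 92 genes, 731 kept their direction. This was largely fixed in advance, because in most of the 92 the arms do not overlap. Leaving out 1 array cannot turn the sign of such a gene, and a replicate block leaves its change as it is. The size of the change was less stable. With 1 array left out, it moved by over 1.5 times in 63 of the 92. Among them were NR4A1 (0.13 to 0.64), PTTG1 (0.08 to 0.44), BIRC2 (-0.36 to -0.08), RPL10A (0.13 to 0.54) and GLA (-0.66 to -0.12). The sign turned for TUBA1B under quantile normalization (-0.03) and, with single arrays left out, for SLC6A2 (-0.69 to 0.17), ITGB3 (-0.36 to 0.21), CT45A1 (-0.14 to 0.07) and TUBA1B (-0.01 to 0.03). The cause was not tested. Of 222 alternative list medians, 38 moved by more than the spread between arrays. The other 12854 probe sets were not above background on at least 1 of the 4 arrays, and there their values say little about the transcript. A limit to be passed on at least 2 of the 4 arrays kept 9141 probe sets.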
